A study of Mus musculus with 8 samples.

Results

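The nuclear genes for subunits of the 4 respiratory chain complexes and of ATP synthase were followed in 8 RNA sequencing libraries of mouse cells. Members were the rows of the FPKM tables whose symbols begin with Nduf, Sdh, Uqcr, Cox or Atp5 and continue as a subunit name does. To leave out assembly factors and pseudogenes, symbols that hold af, -ps or -rs were dropped. The rule found 81 of 19382 genes, with 37 in complex I, 4 in complex II, 8 in complex III, 15 in complex IV and 17 in ATP synthase (complex V). The table of activated hepatic stellate cells (HSCs) held 80 members among 18645 genes and the table of bone marrow derived macrophages (BMDM) held 81 among 17408. Only Cox7b2 was in a single table, that of BMDM.

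The study compared cells with and without auranofin, a gold compound used in rheumatoid arthritis, in 2 experiments on primary cells of C57BL/6 mice, for which no genetic change is stated. HSCs from liver, which had become activated on plastic, received 0.03 µM auranofin or vehicle for 12 h. BMDM were macrophages grown for 7 days with M-CSF from the marrow of male mice aged 8 weeks. All received ATP at 1 mM and LPS at 100 ng/mL, with auranofin or vehicle. The auranofin dose in BMDM was 0.1 µM by the sample labels and 0.3 µM by a legend in the study's paper, for 1 h. Each group had 2 libraries, and neither source says whether these came from separate animals or cultures, so p-values measure only the spread between these libraries, which may be technical.

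Complex I takes electrons from NADH and complex II takes them from succinate. Complex III passes them to cytochrome c and complex IV passes them on to oxygen, and complexes I, III and IV pump protons. ATP synthase uses the proton gradient to make ATP. Activated macrophages are known to shift from respiration towards glycolysis, and complex II is known for its role in the inflammatory response of macrophages to LPS.

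The name rule left out Cox4i1, Cox4i2, Ndufab1 and Cyc1, which are subunits, as well as the electron carrier Cycs. It took in Atp5s and Atp5sl, which are named for ATP synthase but are not held to be subunits of it. RefSeq calls them Dmac2l and Dmac2, and they were counted here with complex V. It also took in Cox7a2l, which is known for joining complexes III and IV. It placed Ndufa4 in complex I, although the protein is now assigned to complex IV. The subunits encoded by mitochondrial DNA were not analysed here, since none of the symbols searched for them was listed in either table.

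The depth, estimated from the steps between low FPKM values, was 2.98e+07 to 3.94e+07 fragments per HSC library and 2.75e+07 to 3.49e+07 per BMDM library. It is a rough estimate, since 43.2% to 50.4% of the low values lay within 0.1 of a whole number of fragments. HSC cultures had 11 of 12 stellate markers at 1 FPKM or more, and also 14 of 15 macrophage markers, whose summed level was 8940 to 9204 FPKM per library against 9682 to 10906 FPKM in BMDM. All 8 endothelial markers were at 1 FPKM or more in HSC cultures, with a summed level of 219 to 243 FPKM, and no hepatocyte marker was. The HSC cultures thus held transcripts of other cell types, and in bulk RNA fewer cells of a type and less RNA per cell cannot be told apart. In BMDM the 2 auranofin libraries were unlike. Hmox1, which encodes heme oxygenase 1, was at 82.7 and 86.7 FPKM in controls. It reached 4403 FPKM in the first auranofin library and 85.3 FPKM in the second. BMDM results are therefore also given for each auranofin library.

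The promoters of these genes are known for sites of the nuclear respiratory factors NRF1 and GABP. RefSeq (GRCm38.p6) gave a window of 250 bases before and 50 after the start for 68 of the 81 members. The NRF1 motif, which is GCGC, then any base, then TGCGC, read on both strands, was found in 25% of the 68 members, in 5.19% of 27025 genes with a window and in 11.5% of 9817 genes tested in either table. Its palindromic form with A as the free base, a subset of it, was found in 7.35% of members, 1.07% of all genes and 2.32% of tested genes. The GABP core CCGGAAG was found in 23.5% of members, 9.93% of all genes and 20.2% of tested genes. The YY1 motif AAGATGGCG was found in 11.8% of members, 1.64% of all genes and 3.59% of tested genes. TATAAA was found in 8.82% of members, 15.7% of all genes and 8.76% of tested genes. By complex, the NRF1 motif was found in 7 of 32 windows of complex I, 2 of 3 of complex II, 1 of 5 of complex III, 1 of 12 of complex IV and 6 of 16 of ATP synthase. A match of letters is not a bound site.

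Windows of 3 members are shown with their matches in capitals. Uqcrc1, a core protein of complex III, and Cox6a1, a subunit of complex IV, are shown as examples with the palindromic form, and Atp5f1 because its level rose in HSCs. Uqcrc1 lies on the plus strand at chr9:108936398-108936697, Cox6a1 on the minus strand at chr5:115348909-115349208, and Atp5f1, which RefSeq calls Atp5pb, on the minus strand at chr3:105959214-105959513.
Uqcrc1: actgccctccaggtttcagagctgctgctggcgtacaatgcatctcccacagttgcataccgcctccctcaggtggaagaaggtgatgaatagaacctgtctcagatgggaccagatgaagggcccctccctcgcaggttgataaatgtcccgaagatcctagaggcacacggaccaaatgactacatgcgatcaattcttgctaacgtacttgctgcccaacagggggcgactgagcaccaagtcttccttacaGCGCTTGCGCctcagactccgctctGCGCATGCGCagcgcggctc
Cox6a1: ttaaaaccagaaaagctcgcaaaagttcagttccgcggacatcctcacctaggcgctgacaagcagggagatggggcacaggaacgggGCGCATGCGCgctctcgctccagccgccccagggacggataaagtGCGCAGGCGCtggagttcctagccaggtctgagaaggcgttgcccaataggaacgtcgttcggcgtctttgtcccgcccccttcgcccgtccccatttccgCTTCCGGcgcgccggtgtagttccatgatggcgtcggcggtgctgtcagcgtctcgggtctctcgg
Atp5f1: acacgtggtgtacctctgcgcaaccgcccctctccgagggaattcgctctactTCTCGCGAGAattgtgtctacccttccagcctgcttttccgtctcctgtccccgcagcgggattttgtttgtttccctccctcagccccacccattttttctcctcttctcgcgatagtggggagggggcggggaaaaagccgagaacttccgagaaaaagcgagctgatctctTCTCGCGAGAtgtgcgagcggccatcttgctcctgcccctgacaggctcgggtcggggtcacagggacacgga
Uqcrc1 held 2 matches to the NRF1 motif. Cox6a1 held 2 matches to the NRF1 motif and 1 to the GABP core. The window of Atp5f1 held none of these motifs. It held 2 copies of a palindrome made of TCTCG and its reverse complement CGAGA, a known element of housekeeping promoters, which was added to the search after this window had been read and was found in 2.94% of members and 1.18% of tested genes.

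Subunit genes were among the more abundant transcripts of both cell types. FPKM is scaled to transcript length, so levels can be set side by side between genes. In HSCs the members made up 1.77% to 1.80% of the summed FPKM of a library, and in BMDM 1.05% to 1.15%. The highest level in both was that of Atp5b, the catalytic beta subunit of ATP synthase, at 456, 455, 470 and 445 FPKM in HSC control replicates 1 and 2 and auranofin replicates 1 and 2. In the same order, Atp5b was at 286, 289, 300 and 300 FPKM in BMDM. By complex, the median level of the control means in HSCs was 60.1 FPKM for complex I, 84.3 for complex II, 102 for complex III, 133 for complex IV and 123 for ATP synthase. In BMDM these medians were 32.2, 57.5, 54.9, 73.4 and 89.6 FPKM, so complex I was the lowest and complexes IV and V were the highest in both cell types.

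**Figure D1:**
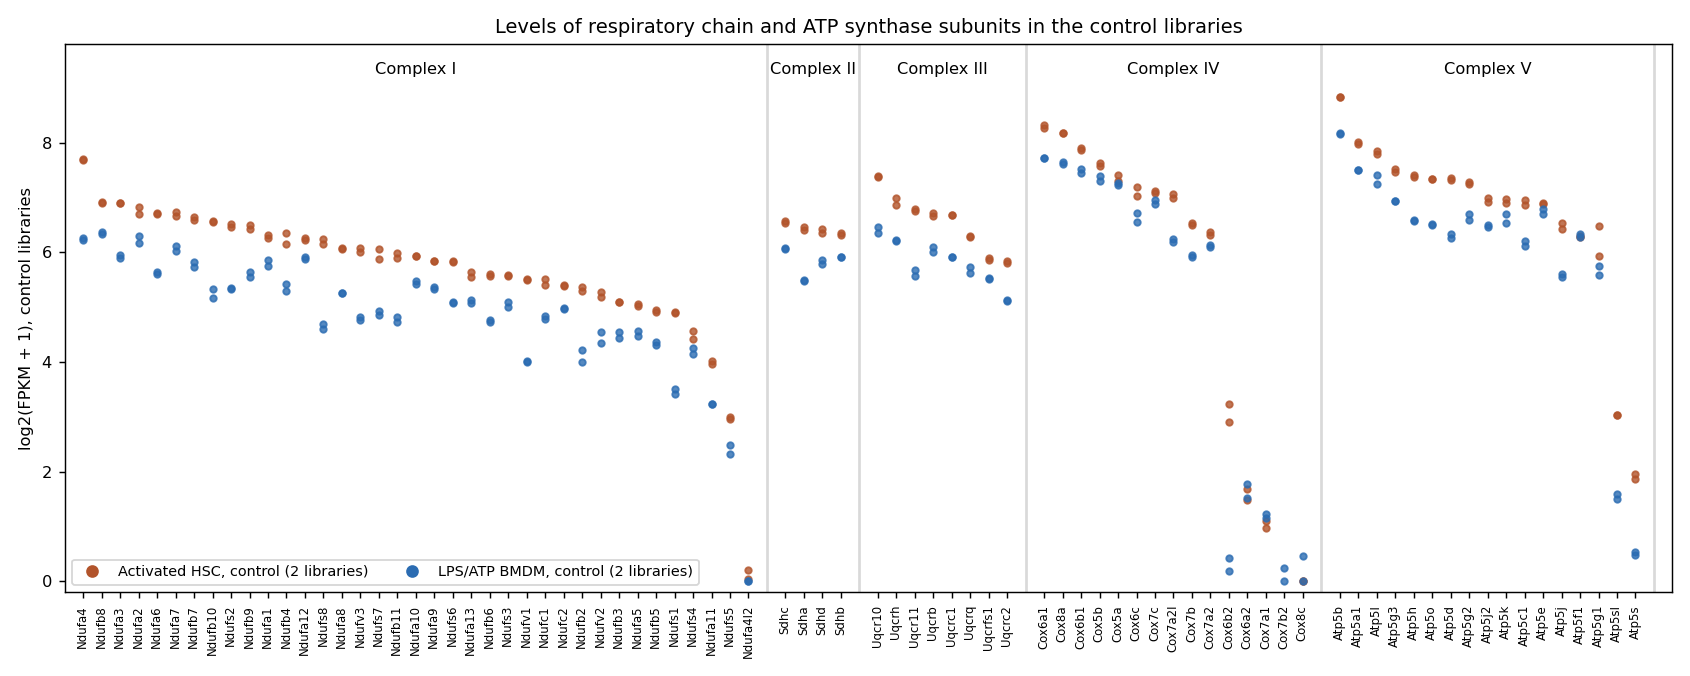
Level of each member, as log2(FPKM + 1) on the vertical axis, in the 2 control libraries of HSCs (brown) and of BMDM (blue), by complex and in falling order of the HSC level. Most members lie between 4 and 8 in both, Atp5b is the highest, and Ndufa4l2, Cox7b2 and Cox8c lie near 0.

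Across the 76 members tested in both tables, the order of levels was alike, with a Spearman rho of 0.945 over genes (a description, as genes are not independent replicates). The tables were normalized separately and the cells differ in origin and treatment, so no test was made between them. The HSC values are those of whole cultures, not of stellate cells alone. Their macrophage markers summed to 9096 and 9204 FPKM in controls, against 9882 and 9682 FPKM in BMDM controls. The control level was higher in HSCs than in BMDM for 73 of the 76 members, with a median ratio of 1.54, but the median ratio of 8963 genes tested in both was 1.84, and that of 2080 genes at 20 FPKM or more in both was 1.24. The 7 core subunits of complex I, which hold its redox centres, had a median ratio of 2.26 and the accessory subunits 1.60. Ndufs8, Ndufv1 and Ndufs1, which belong to the core, had ratios of 3.02, 2.93 and 2.89. Ndufs1, the largest iron-sulphur subunit, was at 28.9 and 29.2 FPKM in the HSC controls and at 9.70 and 10.4 FPKM in the BMDM controls. Complex IV had the smallest median ratio, 1.25. Atp5sl had the highest ratio, 3.71, while Cox7a1, Cox6a2 and Atp5f1 had ratios of 0.826, 0.937 and 0.989 and were the 3 members below 1.

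Several subunits of complex IV and ATP synthase have tissue isoforms encoded by separate genes, and in these cells the widely expressed form made up nearly all of most sets. Cox6a2, the form of heart and skeletal muscle, made up 0.487% to 1.14% of the sum of Cox6a1 and Cox6a2 over the 8 libraries. Cox7a1, the other muscle form, made up 0.441% to 1.10% of its set with Cox7a2 and Cox7a2l. Its level corresponded to about 11.8 fragments in HSC control replicate 1 and 14.3 in BMDM control replicate 1, so its values rest on few reads. Cox6b2, known from testis, was at 8.39, 6.52, 5.95 and 8.06 FPKM in HSCs and at 0.134, 0.347, 0.0994 and 0.273 FPKM in BMDM (controls first). All 4 HSC libraries lay above all 4 BMDM libraries, and Cox6b2 made up 2.40% to 3.49% of its set in HSCs against 0.0494% to 0.199% in BMDM. Ndufa4l2, known to be induced by hypoxia, was at 0.033, 0.157, 0.209 and 0.236 FPKM in HSCs and was listed at 0 in every BMDM library. Cox8c was at 0.53 FPKM or less and Cox7b2 at 0.186 FPKM or less in every library that lists them.

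The c subunit of the ATP synthase rotor is encoded by 3 genes whose mature proteins are the same. Atp5g1 made up 15.1% to 21.3% of their sum, Atp5g2 35.2% to 40.2% and Atp5g3 42.2% to 46.1% over the 8 libraries. Atp5g1 was at 60.2 and 88.4 FPKM in the HSC controls and at 63.4 and 62.5 FPKM in the auranofin libraries, so control replicate 2 stood apart. In exact permutation tests of the isoform ratios within a library no p was below 0.33, the smallest that 2 libraries against 2 allow.

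**Figure D2:**
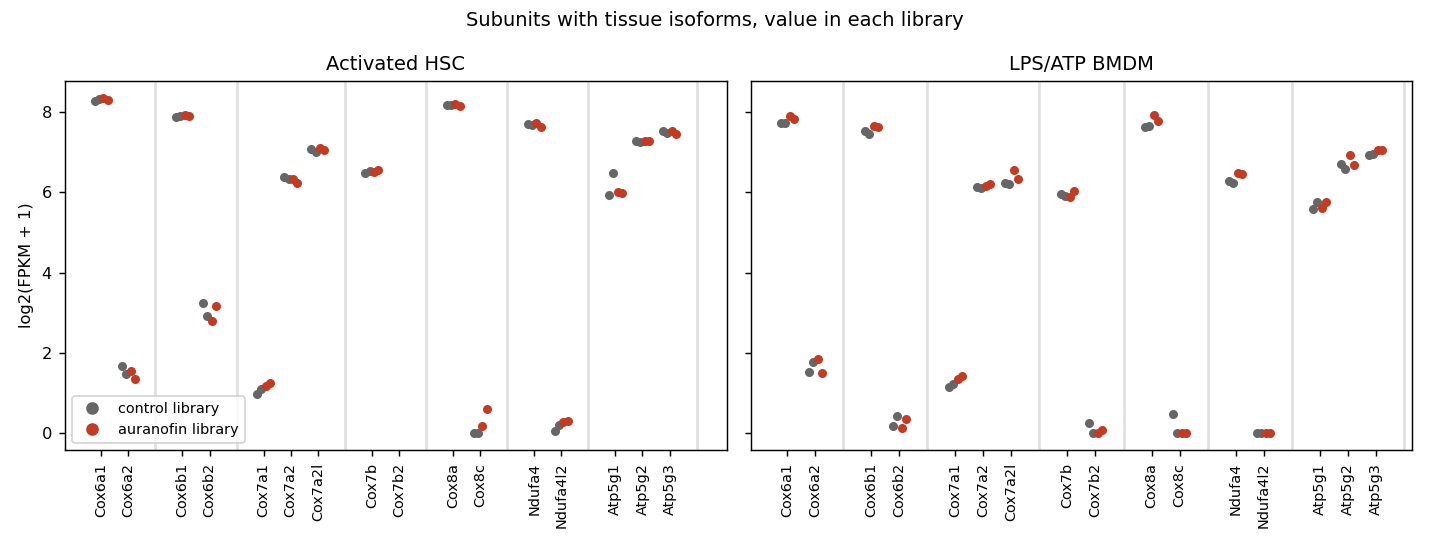
Level of each gene of the isoform sets, as log2(FPKM + 1) on the vertical axis, in each control library (grey) and auranofin library (red) of HSCs (left) and BMDM (right). Cox6b2 lies near 3 in HSCs and below 0.5 in BMDM, and Cox7b2 has no point in HSCs because that table does not list it.

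The first comparison asked whether 12 h of auranofin altered these transcripts in HSCs. It found 2 of 78 tested members changed, Uqcrq, which fell, and Atp5f1, which rose, and the log2 fold changes of the other members lay between -0.21 (Atp5g1) and 0.18 (Cox7a1). The 78 members are those with a mean of at least 1 FPKM, and Ndufa4l2 and Cox8c were below it. The share called was 2.56%, with a Benjamini-Hochberg adjusted p under 0.05 in limma, against 2.33% of all 12149 genes tested (1.24% higher and 1.09% lower), so the members were called about as often as other genes. Their median log2 fold change was 0.0097, against 0.0049 for all genes, with 42 members higher, 36 lower and none past 1.5-fold (0.955% of all genes were). The median confidence interval of a member reached 0.098 to each side on the log2 scale. Both called members were among the 18 tested with several RefSeq transcripts, and none of the 60 with 1 transcript was called. The part of the number of transcripts in these calls was not tested.

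Uqcrq encodes a small subunit of complex III. It was at 76.9 and 78.2 FPKM in the control libraries and at 57.0 and 56.8 FPKM in the auranofin libraries. The groups did not overlap, and each pair of replicates lay close together. On the log2(FPKM + 1) scale it fell by 0.44 (SE 0.033, 95% interval -0.52 to -0.36), with an adjusted p of 0.0053 in limma. In BMDM it was at 52.5 and 48.3 FPKM in controls and at 55.9 and 52.2 FPKM with auranofin, and these groups overlapped. Uqcrq lies at chr11:53427922-53430831 (GRCm38.p6), has 2 RefSeq transcripts and overlaps Gdf9 by 58 bases. Gdf9 was at 0.275 to 0.384 FPKM over the HSC libraries, and its part in the reads of Uqcrq was not tested.

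Atp5f1 encodes subunit b, which forms the peripheral stalk that holds the catalytic head of ATP synthase still. It was at 78.0 and 76.6 FPKM in controls and at 107 and 96.0 FPKM with auranofin, with no overlap. Its log2 fold change was 0.39 (SE 0.057, 95% interval 0.25 to 0.53, adjusted p = 0.035 in limma). The call was lost without auranofin replicate 1, where the log2 fold change was 0.31 and the adjusted p 0.054, and also with no filter on low values or no variance trend (adjusted p = 0.13 and 0.087). In BMDM it was at 79.7, 76.5, 82.0 and 82.2 FPKM, with a log2 fold change of 0.07 (SE 0.10, adjusted p = 0.77 in limma). Atp5f1 lies at chr3:105942698-105959263, has 2 RefSeq transcripts and a near-identical copy, Gm12231, elsewhere in the genome, so its reads may be split in part. Its neighbour Wdr77 was at 15.8, 15.5, 16.6 and 15.7 FPKM in HSCs, and these groups overlapped.

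**Figure D3:**
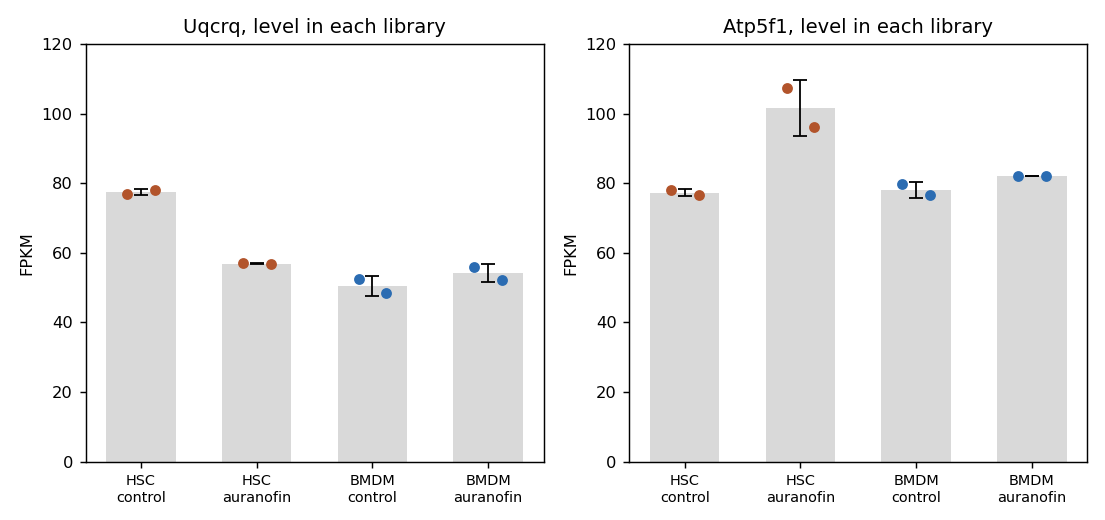
FPKM of Uqcrq (left) and Atp5f1 (right) in each library (points), with the mean (bar) and SD (error bar) of the 2 libraries of a group, for HSCs (brown) and BMDM (blue). Uqcrq falls from 76.9 and 78.2 to 57.0 and 56.8 and Atp5f1 climbs from 78.0 and 76.6 to 107 and 96.0 in HSCs, while the BMDM bars are close to each other.

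No other subunit of complex III or ATP synthase was called in HSCs. Of the 8 complex III members 3 were higher and 5 lower, and the log2 fold changes of the other seven lay between -0.039 (Uqcr10) and 0.059 (Uqcrh). Of the 17 ATP synthase members 8 were higher and 9 were lower, the median difference being -0.0053. Atp5o, the OSCP subunit at the top of the peripheral stalk, was at 160 and 161 FPKM in controls and 153 and 152 FPKM with auranofin (log2 fold change -0.07, adjusted p = 0.29 in limma). Atp5k, subunit e of the membrane part, was at 118 and 125 FPKM in controls and 108 and 117 FPKM with auranofin (log2 fold change -0.11, adjusted p = 0.34 in limma). Neither passed the test, although their groups did not overlap.

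At an unadjusted p under 0.05, 9 of 78 members passed (11.5%, against 17.8% of all genes tested). Besides Uqcrq and Atp5f1, these were Ndufa5, Ndufc1, Ndufc2, Ndufs3, Atp5e and Cox7c, with log2 fold changes of 0.15, 0.16, 0.17, 0.12, 0.08 and 0.10, and Ndufb10, with -0.12. The number was 5 without auranofin replicate 1. Both auranofin libraries lay beyond both controls in 34 of 78 members (43.6%, against 50.1% of all genes), above in 29.5% (against 26.2%) and below in 14.1% (against 23.9%).

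In complex I, 21 of 36 tested members were higher in HSCs with auranofin and 15 were lower. Their median on the log2 scale was 0.016, and none was called. Ndufc1, a small accessory subunit of the membrane arm, was at 41.2 and 44.5 FPKM in controls and 47.6 and 48.7 FPKM with auranofin (adjusted p = 0.16 in limma). Its partner Ndufc2 was at 41.5 and 40.9 FPKM in controls and 49.9 and 43.4 FPKM with auranofin (adjusted p = 0.27 in limma), and most of that difference lay in auranofin replicate 1. Ndufb10, another accessory subunit of the membrane arm, was at 92.4, 94.5, 87.4 and 84.9 FPKM (adjusted p = 0.17 in limma). The core subunits spanned log2 fold changes of -0.047 to 0.12 and the accessory subunits -0.12 to 0.17.

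Ndufs5, an accessory subunit, had uncertain values, because the copy BC002163 has a near-identical coding sequence. Ndufs5 was listed at 6.81, 7.02, 7.85 and 5.12 FPKM in HSCs and BC002163 at 75.7, 69.6, 79.7 and 72.4 FPKM, so most of the signal stood under the name of the copy. The same held in BMDM, where Ndufs5 was at 4.01 to 4.61 FPKM and BC002163 at 46.2 to 53.6 FPKM. In all, 21 of the 81 members had such copies, and 4 of the 38 copies were listed in a table.

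The 4 subunits of complex II, succinate dehydrogenase, showed no call in HSCs. Sdha, the flavoprotein that oxidizes succinate, was at 84.3, 87.4, 84.9 and 85.4 FPKM. Sdhb, the iron-sulphur subunit, was at 80.2, 79.1, 86.2 and 81.9 FPKM, with a log2 fold change of 0.08 (adjusted p = 0.37 in limma). The membrane anchors Sdhc and Sdhd were at 93.9, 91.9, 94.3 and 93.0 FPKM and at 84.5, 81.0, 85.1 and 83.5 FPKM. Of the 4 genes, only Sdhb had groups that did not overlap.

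In complex IV, 7 of 13 tested members were higher in HSCs and 6 were lower, and the median difference was 0.016 on the log2 scale. Cox7c, a small subunit with no tissue isoform, was at 139 and 135 FPKM in controls and 148 and 145 FPKM with auranofin (adjusted p = 0.21 in limma). Cox7a1 had the largest log2 fold change of the complex, 0.18, from 0.952 and 1.16 FPKM to 1.27 and 1.37 FPKM, at few fragments (adjusted p = 0.37 in limma). Cox4i1, the core-associated subunit that the name rule leaves out, was at 399, 413, 398 and 388 FPKM.

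In the HSC cultures the adjusted test was passed by 1 of 11 tested stellate markers, 2 of 8 endothelial markers and 1 of 14 tested macrophage markers. In each list this share was above the 2.33% of all genes. Of 11 tested stellate markers 2 were higher and 9 lower. Acta2, which encodes smooth muscle actin, fell by 0.38 on the log2 scale (adjusted p = 0.0072 in limma), and the other stellate markers did not pass. The summed level of the stellate markers was 3176 and 3342 FPKM in controls and 2752 and 2864 FPKM with auranofin. Of 8 endothelial markers 5 were higher and 3 lower. Stab2 and Clec4g fell by 0.37 and 0.44 (adjusted p = 0.017 and 0.013 in limma). The endothelial list summed to 237 and 219 FPKM in controls and 243 and 224 FPKM with auranofin. Of 14 tested macrophage markers 4 were higher and 10 lower, and only Clec4f passed the test, rising by 0.27 (adjusted p = 0.039 in limma). The macrophage markers summed to 9096 and 9204 FPKM in controls and 8940 and 8957 FPKM with auranofin. The part of these differences in the values of Uqcrq and Atp5f1 was not tested.

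The second comparison asked the same of 1 h of auranofin in BMDM treated with LPS and ATP. Of 76 tested members none passed the test (0.0108% of 9232 genes did, by Benjamini-Hochberg adjusted p in limma), and none had an unadjusted p under 0.05 (against 0.531% of all genes). Nearly all were slightly higher with auranofin. The log2 fold change was above 0 in 72 of 76 members (94.7%, against 66.1% of all genes), with a median of 0.13 against 0.089 for all genes tested and 0.032 for 2738 genes of at least 20 FPKM. The count of higher members was 66 after quantile normalization and 51 after each library was centred on its median. The median log2 fold change of all genes was then 0.00082 and -0.0030, so the 66.1% above is not the share to set beside these counts. Both auranofin libraries lay above both controls in 45 members (59.2%, against 26.3% of all genes) and below them in 1, Ndufs1 (1.32%, against 12.6%), so the groups did not overlap in 60.5% of members and 38.8% of all genes. No member was past 1.5-fold, as 5.89% of all genes were. The median confidence interval of a member reached 0.33 to each side, so a shift of this size in a single gene was within its error.

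The 2 auranofin libraries differed in how far they stood from the controls. In auranofin replicate 1, the library with the high Hmox1, the median member lay 0.20 above the control mean on the log2 scale, and the median of all genes lay 0.18 above it. In auranofin replicate 2 the median member lay 0.066 above, and the median of all genes 0.0049 above. For the 2738 genes of at least 20 FPKM the medians lay 0.046 above in replicate 1 and 0.023 above in replicate 2. In each of the 2 libraries 67 of 76 members were above the control mean. Of all 9232 genes, 6251 were above it in replicate 1 and 4793 in replicate 2. Members lay above both controls in 81.6% of cases in replicate 1 (all genes 64%) and 69.7% in replicate 2 (all genes 37.6%). The members also moved little. In replicate 1 no member was 1 or more from the control mean on the log2 scale, the farthest being at 0.40, while 7.84% of all genes were.

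The call depended on which auranofin library was used. Without replicate 2, 44 of 76 members had an adjusted p under 0.05 in limma (57.9%, against 65% of all genes), 43 of them higher and 1, Sdha, lower. Without replicate 1, none had, and 12 had an unadjusted p under 0.05, all higher (15.8%, against 8.94% of all genes). In both fits the lone auranofin library was assumed to vary like the controls.

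**Figure D4:**
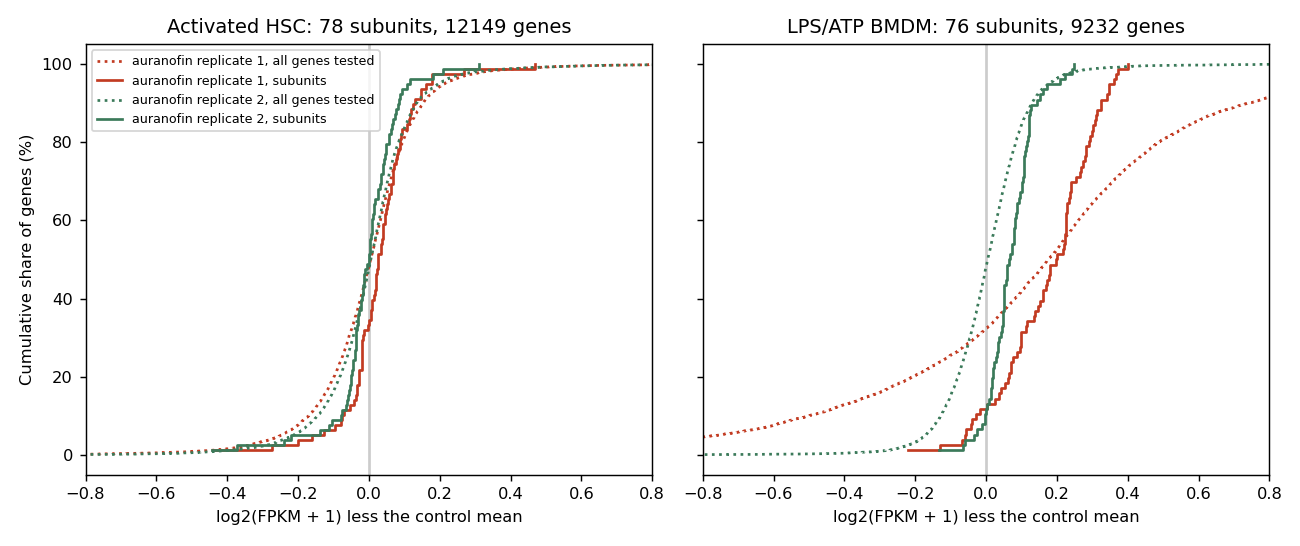
Cumulative share of genes (vertical axis, percent) by the difference of an auranofin library from the control mean on the log2(FPKM + 1) scale, for subunits (solid) and all genes tested (dotted), in HSCs (left) and BMDM (right). In BMDM the medians of the subunits lie right of 0 in both libraries, at 0.20 and 0.066. All genes spread widely in replicate 1 (red) but centre on 0.0049 in replicate 2 (green).

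Among members whose BMDM groups did not overlap, Atp5e, Ndufb2, Uqcr11 and Atp5sl had the largest positive differences. Atp5e, the epsilon subunit of the central stalk of ATP synthase, was at 103, 109, 135 and 124 FPKM, with a log2 fold change of 0.29 (SE 0.11, adjusted p = 0.72 in limma). Ndufb2, an accessory subunit of complex I, was at 15.0, 17.7, 20.5 and 19.5 FPKM (log2 fold change 0.28, adjusted p = 0.72 in limma). Uqcr11, the smallest subunit of complex III, was at 50.3, 46.2, 61.4 and 54.4 FPKM (log2 fold change 0.26, adjusted p = 0.72 in limma). In these 3 genes both auranofin libraries lay above both controls, and the first auranofin library was the highest. Atp5sl was at 1.84, 2.03, 2.88 and 2.12 FPKM, with most of its log2 fold change of 0.24 from replicate 1.

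By complex the higher members in BMDM numbered 35 of 36 in complex I, 3 of 4 in complex II, 6 of 8 in complex III, 12 of 12 in complex IV and 16 of 16 in ATP synthase. Their median log2 fold changes were 0.13, 0.094, 0.083, 0.14 and 0.12. The 4 lower members were Ndufs1, Sdha, the complex III core protein Uqcrc2 and the Rieske iron-sulphur protein Uqcrfs1, with log2 fold changes of -0.061, -0.11, -0.025 and -0.041. The 29 accessory subunits of complex I were all higher, with a median of 0.14, whereas the 7 core subunits had a median of 0.059. In auranofin replicate 1 the median core subunit lay 0.036 above the control mean and the median accessory subunit 0.23 above it, and in replicate 2 these medians were 0.081 and 0.052.

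**Figure D5:**
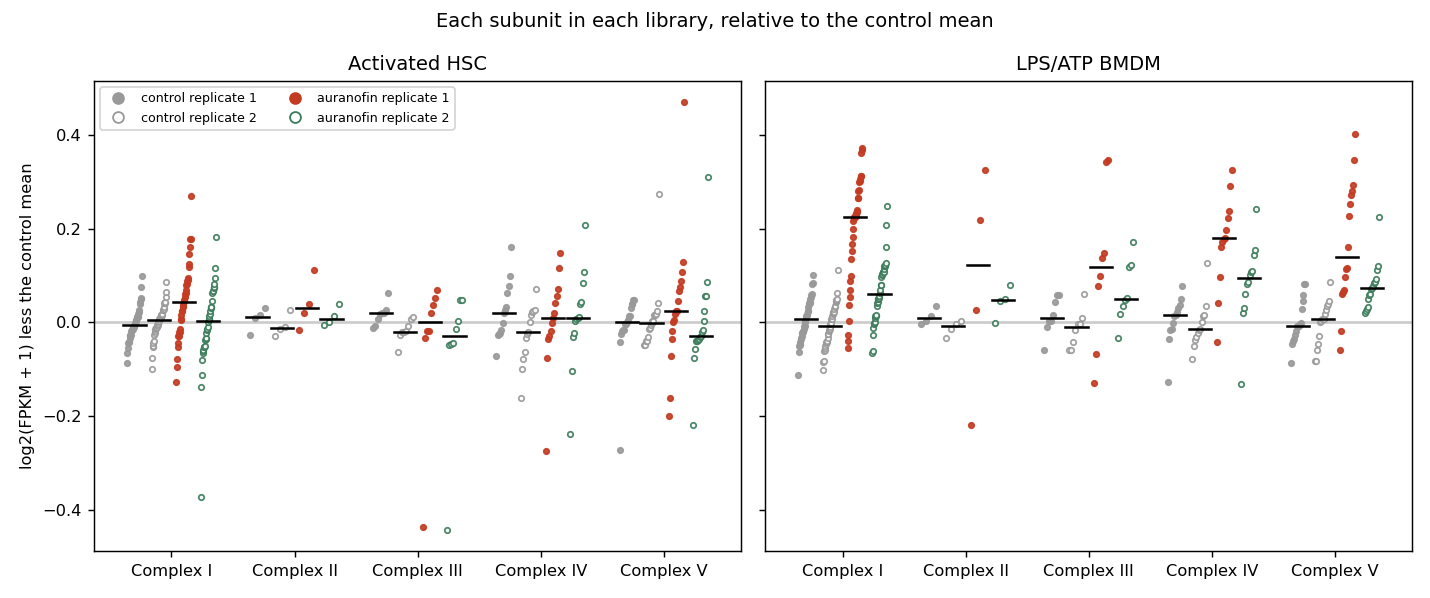
Difference of each library from the control mean on the log2(FPKM + 1) scale for every tested member, by complex, in HSCs (left) and BMDM (right). Grey points are controls, red points auranofin replicate 1, open green points auranofin replicate 2 and black bars medians. The BMDM medians of both auranofin libraries lie above 0 in every complex, and in HSCs they lie within 0.043 of 0.

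None of the 4 complex II genes passed the test in BMDM (adjusted p = 0.72 to 0.86 in limma). Sdha was at 44.1 and 43.8 FPKM in controls, 37.6 FPKM in auranofin replicate 1 and 43.9 FPKM in replicate 2, so its lower mean came from replicate 1. Sdhb was at 59.1, 59.3, 74.4 and 61.2 FPKM, with a log2 fold change of 0.19 (adjusted p = 0.72 in limma), also mostly from replicate 1. Sdhc was at 67.0, 65.7, 67.6 and 68.7 FPKM and Sdhd at 57.2, 54.5, 65.1 and 59.0 FPKM. In replicate 1 the catalytic subunit was thus below both controls and the other 3 were above both, a difference between members that was not tested. The sign of Sdhc turned to -0.054 when libraries were centred on their medians.

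Other genes of the same pathways were taken from lists. Of the assembly factors of the complexes, 46 were tested in HSCs and none passed the adjusted test in limma, while 4 passed at an unadjusted p, as 17.8% of all genes did. These were Ndufaf7, Cox20, Coa5 and Pet100, all higher, and the median log2 fold change was 0.028. In BMDM 40 were tested with none past either threshold and a median of 0.082. The 17 Krebs cycle genes had medians of 0.00064 in HSCs and 0.088 in BMDM, with none past either threshold. Of 12 tested regulators of mitochondrial biogenesis none passed the adjusted test in either table, and Pprc1, a coactivator of the PGC-1 family, was at 13.2, 12.6, 11.2 and 11.9 FPKM in HSCs (log2 fold change -0.15, adjusted p = 0.21 in limma). Among proteins of the mitochondrial ribosome, which makes the mitochondrially encoded subunits, none of 78 passed the adjusted test in HSCs and 6 passed at an unadjusted p (against 17.8% of all genes), all higher, with a median of 0.061. In BMDM 71 of 77 were higher (92.2%, against 66.1% of all genes) with a median of 0.19. Taken by library, their median lay 0.30 above controls in the first auranofin library and 0.059 above in the second. Cox4i1, Ndufab1, Cyc1 and Cycs, which the name rule left out, were tested, and none passed the adjusted test in either table. The gene for the inhibitor of ATP synthase had log2 fold changes of 0.08 in HSCs and 0.17 in BMDM. None of these lists gave a call at the adjusted threshold in either cell type. Of all genes tested, 2.33% passed it in HSCs and 0.0108% in BMDM. With shares this low, lists of this size can lack a call without differing from other genes.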

How the data were processed

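RNA from 4 libraries of activated HSCs and 4 of LPS/ATP-treated BMDM was made into libraries for stranded mRNA sequencing. The FPKM values deposited by the authors were fragments scaled to transcript length and library size, in 1 table per cell type on mm10. The submitters' processing notes name CASAVA, FastQC 0.11.7, Trimmomatic 0.38, HISAT2 2.1.0 and StringTie 1.3.4d, and filters are not given in the sources used here. No counts are given, so depth was estimated from the steps between FPKM values under 0.2 in genes with 1 transcript.

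Each table was fitted alone with limma 3.58.1 (R 4.3.3) on log2(FPKM + 1) over the genes whose mean reached 1 FPKM, using eBayes with trend and Benjamini-Hochberg adjustment over all genes tested. Fold changes on this scale understate the change of low genes. Near-identical copies were coding sequences matching over 80% of their length at 95% identity (blastn 2.17.0, GENCODE M21). Promoter windows and coordinates came from RefSeq, GRCm38.p6. Alternatives were the pseudocount, the filter, quantile normalization, median centring, no variance trend, a replicate block and leaving out each library.

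Named members were those past the adjusted threshold, the 4 largest rises and falls among members whose groups did not overlap, the highest and lowest of each complex, isoform sets, complex II and members under 1 FPKM. Members at an unadjusted p, those with extreme ratios between cell types, and Ndufs5 with its copy were named after their values were seen. The members and lists were chosen with earlier results of these data known, and the mitochondrial ribosome list was added after the values were seen.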

Additional observations from a re-analysis of the deposited data

Results flagged for a closer look

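In 8 members both auranofin libraries lay on 1 side of both controls in HSCs and on the other side in BMDM. They were 10.5% of the 76 members tested in both tables, against 6.73% of 8963 genes tested in both. This contrast of the cell types was not tested, and dose and time differ between them. The log2 fold change in BMDM less that in HSCs was 0.13 for Cox7a2, 0.19 for Atp5o, 0.22 for Atp5d, 0.13 for Ndufa3, 0.27 for Uqcr10, 0.24 for Ndufb8 and 0.20 for Ndufs6, which were lower in HSCs and higher in BMDM. It was -0.13 for Ndufs1, the only member of the 8 that was higher in HSCs and lower in BMDM. None of the 8 passed the adjusted test in limma in either cell type.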

How the results depend on the processing

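The number of members past the adjusted threshold in limma in HSCs was 1 with no filter (0.263% of all genes passed), 1 with no variance trend (1.06%) and 1 to 3 when a library was left out (1.46% to 4.06%). The number at an unadjusted p was then 5 to 11 (12% to 16.6% of all genes). Their median log2 fold change was -0.00079 after median centring and 0.00099 to 0.026 without a library, and its excess over all genes -0.0045 to 0.020 (-0.0045 without auranofin replicate 1). In BMDM leaving out a library gave 0 to 44 members past the adjusted threshold (0.0108% to 65% of all genes), 0 to 49 at an unadjusted p (0.152% to 69.6%) and a median of 0.066 to 0.20, the upper end of each without auranofin replicate 2. With no filter 2 passed at an unadjusted p, as 2.87% of all genes did. The median was 0.11 after quantile normalization and 0.040 after median centring. The causes were not tested beyond the fewer libraries. Without a library the log2 fold change in HSCs ran from -0.037 to 0.015 for Sdha, -0.0035 to 0.026 for Sdhc and -0.0028 to 0.057 for Sdhd, and that of Sdhc in BMDM was -0.054 after median centring.

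Libraries of the groups share replicate numbers, but nothing says that a number marks a shared culture or day. With the number as a replicate block 2 members passed in HSCs and 0 in BMDM, 12 and 0 at an unadjusted p (15.4% and 0% of members, against 19.6% and 0.574% of all genes), and no call changed. The correlation of same-numbered deviations over genes was 0.11 in HSCs and -0.055 in BMDM. With FPKM and 2 libraries a group, an exact permutation test cannot go below 0.33. The counts of higher members and the excess of the median over all genes were added as results after the data had been seen.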
